A study of Mus musculus with 4 samples.

Results

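Described here are 59 genes for the actin cytoskeleton (the actin isoforms, the proteins that start, crosslink, cap and cut actin filaments, and non-muscle myosin II) in GC-1, an immortal line of mouse spermatogonia. The members were taken by gene name from a fixed list, which was drawn up with earlier results of these data known. They had 143 of the 56605 gene probes on the array. Of the 59 members, 56 were found under their current name and 3 formins (Diaph1, Diaph2 and Diaph3) under an older one. The 2 groups were cells transfected with a pCMV plasmid carrying murine Hdac6 with a myc/DDK tag under the CMV promoter (2 arrays, Hdac6 vector 1 and 2) and cells transfected with the vector alone (2 arrays, empty vector 1 and 2). Both groups were harvested 48 h after transfection, and each sample was hybridised to a one-colour Agilent array. The share of cells that took up the plasmid is not given in the labels, nor whether arrays of 1 group came from separate cultures. The title of the series asks about Hdac6 overexpression, profilin 2 and germ cell migration.

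Actin monomers assemble into polar filaments that push membranes forward and, with myosin, pull. The Arp2/3 complex, switched on by WASP and WAVE proteins, starts branched networks, whereas formins and WH2-domain nucleators start unbranched filaments. Crosslinkers bundle or web the filaments, tropomyosins coat them, capping and severing proteins set their length, and ezrin, radixin and moesin tie them to the membrane. Hdac6 is a cytoplasmic deacetylase known for acting on tubulin and on the actin-binding protein cortactin. In the testis, actin bundles line the junctions between Sertoli cells and germ cells.

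The actin isoforms are so alike in protein sequence that the probe decides which gene is read. The first 30 of the 60 bases of the probe used for 4 of the 5 actins are therefore shown, 5′ to 3′, as printed in the array files, with no base singled out by capitals.
Actb: tctaggcggactgttactgagctgcgtttt
Actg1: gactacctcatgaagatcctgactgaacgg
Acta1: acatcgacatcaggaaggacctgtacgcca
Actc1: cagagactctcttccagccctctttcattg
The files place them (build mm9, minus strand for all 4) at chr5:143665422-143665481 for Actb, chr11:120208409-120208468 for Actg1, chr8:126416197-126416256 for Acta1 and chr2:113874011-113874934 for Actc1. The Actc1 probe spans 924 bases of the chromosome and so crosses at least 1 intron. Between probes of different actins, at most 27 of the aligned bases were identical at the best ungapped shift. The 3 probes of Actg1 had 18 to 20 among themselves. The comparison therefore gives no measure of how far each probe binds another isoform's transcript, which was not tested.

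A level is the log2 processed signal of a probe minus the array's 75th percentile over gene probes. Where a gene has several probes, the brightest tested one stands for it. Levels of different probes depend on the probe as well as on the RNA, so each is read only across arrays. All 59 members had a probe well above background on both arrays of at least 1 group, and 58 had one on all 4 arrays. The exception was Spire1. Of the 143 probes, 129 passed this filter and were tested.

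The arrays did not divide by group. Before scaling, the 75th percentile of signal over gene probes stood at 815 and 453 on the Hdac6 vector arrays, and 666 and 693 on the empty vector arrays. Hdac6 vector 1 and empty vector 2, which carry different vectors, were the closest pair, for the members and over all tested probes. Between them 0 of 129 member probes were at least 2-fold apart, against 1.22% of all tested probes. For the other 5 pairs the count was 6 to 16, against 5.34% to 7.67% of all tested probes. Hdac6 itself, read by 1 probe, had levels of 2.62 and 3.24 with the Hdac6 vector, against 3.31 and 2.83 with the empty vector, a log2 fold change of -0.14 (limma adjusted p = 1.00). It overlapped between the groups and so gave no check of the labels. Whether it reads the plasmid's transcript is not known from the files. The line's own markers were incomplete: 10 of 16 spermatogonial markers were tested, and Dazl, Kit, Nanos2, Ret, Stra8 and Thy1 were not well above background. Etv5 and Uchl1 of the same list were bright, at 2.52 to 4.06 and 3.39 to 4.53, while the other 8 tested (Gfra1, Zbtb16, Id4, Ddx4, Sohlh1, Nanos3, Lin28a and Sall4) lay below the 75th percentile on every array, at -7.14 to -1.34. Of 6 fibroblast markers, Col1a1, Col1a2 and Vim were bright, at 5.79 to 7.26 over the 4 arrays, Pdgfra was at 1.66 to 1.98 and Pdgfrb at -4.68 to -4.07, and Thy1 was not well above background.

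None of the 129 member probes changed (0 with a limma adjusted p under 0.05, Benjamini-Hochberg over all tested probes). Of all 35206 probes tested, 4 were called, all higher (0.0114% called). At an unadjusted p under 0.05 there were 2 of the 129 member probes, against 1.83% of all probes. By the brightest probe there were 2 of the 59 members, against 1.84% of all genes. They were Actc1 and Spire1, and Spire1 passed the filter only through the Hdac6 vector arrays, where it was higher. Over probes well above background on all 4 arrays, 1 member probe and 460 of all 32594 had an unadjusted limma p under 0.05. Of the members, 25 were higher by mean with the Hdac6 vector, against 50.7% of all genes. In 7 members both Hdac6 vector arrays lay above both empty vector arrays (12.3% of all genes), and in 7 both lay below (12.9% of all genes). The members' median log2 fold change was -0.05, beside 0.00 over all genes tested. The 95% interval stayed within a 2-fold change either way for 48 of the 59 members. Since RNA came from whole cultures, a difference in cells and a difference in RNA per cell cannot be told apart.

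**Figure D1:**
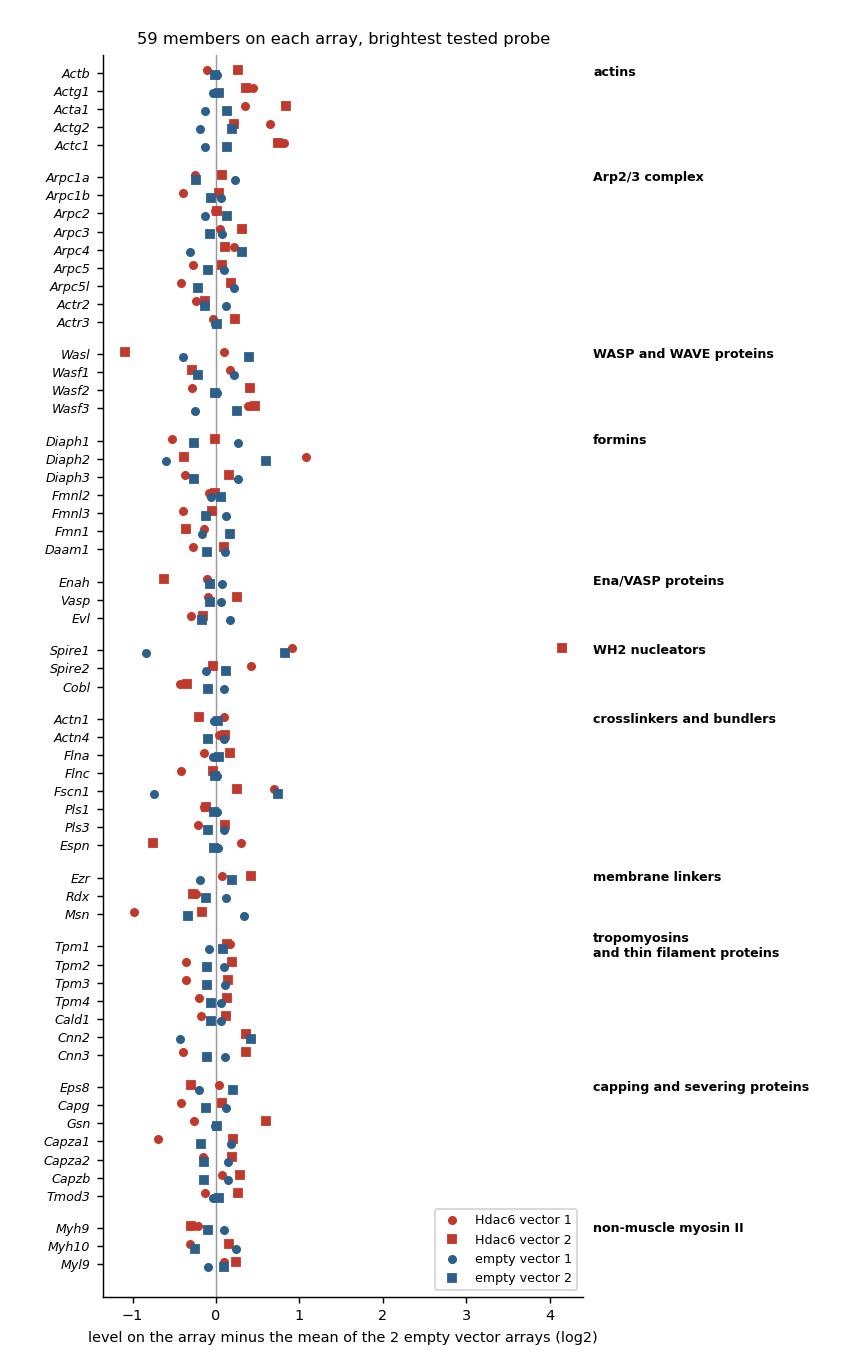
Level of each of the 59 members on each array, minus the mean of the 2 empty vector arrays (x axis, log2), by role. Red circles and squares are Hdac6 vector 1 and 2, blue circles and squares empty vector 1 and 2; in most rows the red and blue points interleave, and Spire1 on Hdac6 vector 2 lies far to the right.

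All 5 actins were higher by mean with the Hdac6 vector, against 50.7% of all genes. In 4 of the 5 both Hdac6 vector arrays lay above both empty vector arrays, against 12.3% of all genes. None of the 5 actins passed the test (limma adjusted p = 1.00 for each). Their median log2 fold change was 0.43. Actc1 encodes cardiac muscle actin. Its level was -1.10 and -1.17 with the Hdac6 vector, against -2.05 and -1.79 with the empty vector. The means were -1.14 ± 0.05 and -1.92 ± 0.18 (SD, n = 2 each), and the arrays separated by group. The fold was 1.72 (95% interval 1.11 to 2.68, limma unadjusted p = 0.0215, adjusted p = 1.00). Acta1, skeletal muscle actin, stood at -3.46 and -2.97 with the Hdac6 vector and at -3.94 and -3.67 with the empty vector. These did not overlap either, at 1.51-fold with an interval of 0.886 to 2.57.

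Actg1, cytoplasmic gamma-actin, is 1 of the 2 actins that non-muscle cells build most of their filaments from. Its level was 6.62 and 6.53 with the Hdac6 vector, against 6.14 and 6.22 with the empty vector, a fold of 1.32 (95% interval 0.908 to 1.92). The arrays of a group lay within 0.09 of each other. Its other 2 probes gave log2 fold changes of 0.39 and 0.34, beside 0.40 at the brightest, and none of the 3 overlapped between groups. Actg2, the gamma-actin of visceral smooth muscle, was at 0.90 and 0.48 with the Hdac6 vector and at 0.06 and 0.45 with the empty vector. The groups lay 0.03 apart at their nearest arrays, at 1.35-fold (0.877 to 2.08).

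Actb, cytoplasmic beta-actin, was the one actin whose arrays overlapped. It stood at 8.04 and 8.41 with the Hdac6 vector, against 8.15 and 8.13 with the empty vector (log2 fold change 0.08, interval -0.53 to 0.69). Its sign turned under median scaling (-0.01), with normexp background correction (-0.01) and without Hdac6 vector 2 (-0.10). The other 4 actins stayed higher under each of the 13 alternatives run, and the group median ranged from 0.34 to 0.63. Acta2, vascular smooth muscle actin, is not a member but completes the family. It gave 3.58 and 3.73 with the Hdac6 vector, against 3.06 and 3.12 with the empty vector, a log2 fold change of 0.56 (limma unadjusted p = 0.0346, adjusted p = 1.00). It did not overlap either.

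**Figure D2:**
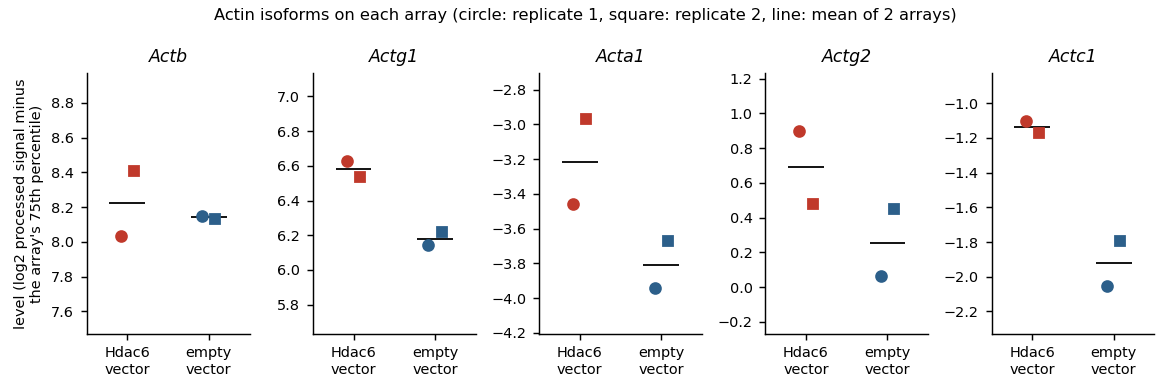
Level of the 5 actin isoforms on each array (y axis, log2 processed signal minus the array's 75th percentile, 1.5 log2 units in each panel), Hdac6 vector left and empty vector right. Circles are replicate 1, squares replicate 2, lines the mean of 2 arrays; the groups separate for Actg1, Acta1, Actg2 and Actc1 and overlap for Actb.

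Markers of muscle cells were read beside the muscle actins. Of 8 skeletal and cardiac muscle markers, 6 were tested, while Ckm and Myh3 were not well above background. The summed signal of the 6, in units of the array's 75th percentile, was 0.744 and 0.817 with the Hdac6 vector, against 0.855 and 1.15 with the empty vector. Without Tnnt2, a cardiac troponin, it was 0.224 and 0.240 with the Hdac6 vector, against 0.236 and 0.273 with the empty vector, and overlapped. By mean 4 of the 6 were higher and 2 lower (median log2 fold change 0.14). Tnnt2 (-0.43) and the skeletal troponin Tnnt3 (-0.44) lay wholly below the empty vector arrays, the cardiac myosin Myh6 (0.28) wholly above, and Myod1 (0.12), Myog (0.28) and Ttn (0.16) overlapped. Of 7 smooth muscle and peritubular myoid markers, 6 were tested, Lmod1 not being well above background. Their summed signal was 60.7 and 65.1 with the Hdac6 vector, against 54.8 and 64.2 with the empty vector. By mean 2 of the 6 were higher and 4 lower (median log2 fold change -0.04), and Acta2 was the one that did not overlap. The part of such cells in the actin values was not tested.

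The Arp2/3 complex nucleates new filaments as branches on old ones, and all 9 of its member subunits were measured. Of these, 3 were higher and 6 lower by mean with the Hdac6 vector, with a median log2 fold change of -0.09 and a range of -0.19 to 0.18. Actr2, the actin-related ARP2 subunit, was the one subunit whose groups did not overlap at the brightest probe. Its level was 4.11 and 4.22 with the Hdac6 vector, against 4.48 and 4.23 with the empty vector, so the groups were 0.01 apart at their nearest arrays (log2 fold change -0.19, interval -0.72 to 0.34). Arpc3, a small subunit, gave 5.39 and 5.65 with the Hdac6 vector, against 5.42 and 5.27 with the empty vector (log2 fold change 0.18, interval -0.37 to 0.72). Arpc1b, 1 of 2 versions of the WD-repeat subunit, gave 7.06 and 7.50 with the Hdac6 vector, against 7.52 and 7.41 with the empty vector (log2 fold change -0.18, interval -0.79 to 0.42). The groups of both overlapped. The other 6 subunits (Arpc1a, Arpc2, Arpc4, Arpc5, Arpc5l and Actr3) had log2 fold changes of -0.12 to 0.17 at their brightest probes. Their groups all overlapped there. Other probes of Arpc3, Arpc2 and Arpc4 lay wholly above the empty vector arrays (0.39, 0.05 and 0.08). The second Actr2 probe overlapped (0.16).

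The 4 WASP and WAVE members, which switch the Arp2/3 complex on, were split, with 2 higher and 2 lower by mean and a median log2 fold change of 0.00. Wasl encodes N-WASP. It gave 1.27 and 0.08 with the Hdac6 vector, against 0.77 and 1.57 with the empty vector, with the lowest and the second-highest value both in the Hdac6 vector group (log2 fold change -0.50, interval -1.43 to 0.43). Wasf3 (WAVE3) was dim, at -4.99 and -4.91 with the Hdac6 vector and at -5.62 and -5.13 with the empty vector, and did not overlap (log2 fold change 0.42, interval -0.39 to 1.24). Wasf1 (WAVE1) gave 2.34 and 1.88 with the Hdac6 vector, against 2.38 and 1.96 with the empty vector, and overlapped, as did Wasf2 (WAVE2, log2 fold change 0.06). Of 17 genes for partners of these proteins (the WAVE complex, WIP proteins, cortactin and coronins among them), all were tested, 0 changed and 4 were higher by mean, with a median log2 fold change of -0.08. The 3 with the smallest unadjusted p were Was, the WASP of blood cells (log2 fold change 0.65), and the WIP family genes Wipf2 (-0.41) and Wipf1 (-0.57).

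The 7 formins, which start and lengthen unbranched filaments at the fast-growing end, had a median log2 fold change of -0.11, and 1 of 7 was higher by mean. None separated the groups at its brightest probe. Another Fmnl2 probe, dimmer, lay wholly above the empty vector arrays (0.61). Fmn1 (formin 1) gave 3.13 and 2.91 with the Hdac6 vector, against 3.11 and 3.45 with the empty vector. Fmnl3 gave 3.81 and 4.16 with the Hdac6 vector, against 4.32 and 4.08 with the empty vector. Diaph1, a formin of the diaphanous family, gave 5.34 and 5.86 with the Hdac6 vector, against 6.13 and 5.60 with the empty vector. In each of the 3 the groups interleaved, and the log2 fold changes were -0.26, -0.22 and -0.27. The 1 formin that was higher by mean was Diaph2, at 1.58 and 0.11 with the Hdac6 vector, against -0.10 and 1.09 with the empty vector (log2 fold change 0.35, interval -0.79 to 1.48). Its spread between arrays of 1 group exceeded its difference between groups.

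Ena/VASP proteins protect growing filament ends and lengthen them. Enah (Mena) gave 2.52 and 1.99 with the Hdac6 vector, against 2.69 and 2.56 with the empty vector, and did not overlap (log2 fold change -0.37, interval -0.95 to 0.22). Evl gave 3.73 and 3.88 with the Hdac6 vector, against 4.20 and 3.86 with the empty vector (log2 fold change -0.23). Vasp gave 0.97 and 1.31 with the Hdac6 vector, against 1.13 and 1.00 with the empty vector (log2 fold change 0.08). Evl and Vasp overlapped at their brightest probes, and the median of the 3 was -0.23. Another Evl probe lay wholly above the empty vector arrays (0.30).

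The WH2 nucleators hold the member with the largest fitted difference, Spire1, whose protein strings actin monomers together and works with formins. Its 1 tested probe gave -4.96 and -1.73 with the Hdac6 vector, against -6.71 and -5.04 with the empty vector. It was well above background on 3 of the 4 arrays, the exception being empty vector 1. The probe therefore passed the filter only through the Hdac6 vector arrays, the group in which it was higher. Hdac6 vector 2 stood far above the other arrays, while Hdac6 vector 1 and empty vector 2 were 0.08 apart. The log2 fold change was 2.53 (95% interval 0.46 to 4.60, limma unadjusted p = 0.0220, adjusted p = 1.00). It was 0.91 without Hdac6 vector 2 and 4.14 without Hdac6 vector 1. Without empty vector 1 it was 1.69. Without empty vector 2 the one empty vector array left is that on which the probe was not well above background, so its level there is only a bound. The same level also enters the log2 fold changes of 2.53, 0.91 and 4.14. Set against that array's dimmest level well above background over all probes, the mean of the Hdac6 vector arrays was 8.19-fold higher. That limit is not specific to the Spire1 probe. With normexp background correction the log2 fold change was 0.93 over all 4 arrays. The second Spire1 probe was not well above background on any of the 4 arrays.

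Spire2, the sister gene, gave -1.95 and -2.40 with the Hdac6 vector, against -2.49 and -2.24 with the empty vector, and overlapped (log2 fold change 0.19, interval -0.52 to 0.90). Cobl (cordon-bleu), another WH2 nucleator, gave -0.26 and -0.18 with the Hdac6 vector, against 0.27 and 0.07 with the empty vector. It did not overlap (log2 fold change -0.39, interval -0.96 to 0.18). In the authors' value table, which holds 1 row per gene name, Cobl had a log2 fold change of 1.03 in place of -0.39. On the level scale that table's Cobl value was -2.53, -2.67 and -2.26 on Hdac6 vector 1, empty vector 1 and empty vector 2, each within 0.01 of the mean of the gene's 2 probes. On Hdac6 vector 2, where 1 of the 2 probes was not well above background, it was -0.17, within 0.01 of the level of the brighter probe alone.

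The 8 crosslinkers and bundlers had a median log2 fold change of -0.05, with 3 higher and 5 lower by mean. Fscn1 encodes fascin, which packs filaments into the tight bundles of filopodia. It gave 2.16 and 1.71 with the Hdac6 vector, against 0.72 and 2.21 with the empty vector, so that 1 low array, empty vector 1, carried the difference (log2 fold change 0.47, interval -0.50 to 1.45). Without empty vector 1 it was -0.27, and without empty vector 2 it was 1.22 and passed the test (limma adjusted p = 0.0434). Flnc, a filamin that crosslinks filaments into webs, gave 5.45 and 5.83 with the Hdac6 vector, against 5.88 and 5.85 with the empty vector. It did not overlap, by 0.02 (log2 fold change -0.23, interval -0.79 to 0.34). Espn encodes espin, a bundling protein of the Sertoli cell junctions and of hair cells. Its level was -3.25 and -4.30 with the Hdac6 vector, against -3.52 and -3.57 with the empty vector, the Hdac6 vector arrays lying on either side (log2 fold change -0.23). Another Espn probe lay wholly above the empty vector arrays (0.67) and a further one wholly below (-0.16).

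The remaining 5 of that role were steadier. The alpha-actinins Actn1 and Actn4, filamin A (Flna) and the plastins Pls1 and Pls3 had log2 fold changes of -0.13 to 0.08. Only Pls1 of the 5 did not overlap at its brightest probe. It gave -1.64 and -1.61 with the Hdac6 vector, against -1.47 and -1.51 with the empty vector. Another Flna probe lay wholly above the empty vector arrays (0.34). Among the membrane linkers, Msn (moesin) gave 6.24 and 7.06 with the Hdac6 vector, against 7.56 and 6.89 with the empty vector, and overlapped (log2 fold change -0.58, interval -1.36 to 0.21). Another Msn probe lay wholly below the empty vector arrays (-0.20). Rdx (radixin) gave 2.09 and 2.05 with the Hdac6 vector, against 2.44 and 2.20 with the empty vector, and did not overlap (log2 fold change -0.25). Ezr (ezrin) gave 7.77 and 8.12 with the Hdac6 vector, against 7.51 and 7.90 with the empty vector, and overlapped (log2 fold change 0.24). The 3 did not share a direction.

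Of the 7 tropomyosins and other thin filament proteins, 2 were higher by mean, and the median log2 fold change was -0.03. Cnn2 encodes calponin 2, which binds along filaments. It gave 3.23 and 3.23 with the Hdac6 vector, against 2.44 and 3.29 with the empty vector, so empty vector 1 was the one array apart (log2 fold change 0.36). Without empty vector 1 it was -0.07. Tpm1, a tropomyosin, gave 4.64 and 4.61 with the Hdac6 vector, against 4.39 and 4.56 with the empty vector, and did not overlap (log2 fold change 0.15, interval -0.37 to 0.67). Tpm3 gave 6.55 and 7.05 with the Hdac6 vector, against 7.01 and 6.80 with the empty vector, and overlapped (log2 fold change -0.11). Tpm2, Tpm4, Cnn3 and caldesmon (Cald1) had log2 fold changes of -0.08 to -0.02 at their brightest probes. Other probes of Tpm3 and Cnn3, the latter placed on the opposite strand, lay wholly above the empty vector arrays (0.26 and 0.28).

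The 7 capping and severing proteins showed 4 higher and 3 lower by mean, with a median log2 fold change of 0.02. No member's groups separated at its brightest probe. Another Capza2 probe lay wholly below the empty vector arrays (-0.41) and another Capzb probe wholly above (0.24). Capping protein, a dimer that stops growth at the fast-growing end, was read by 3 genes. Its beta subunit Capzb gave 5.09 and 5.29 with the Hdac6 vector, against 5.15 and 4.87 with the empty vector (log2 fold change 0.18). The alpha subunit Capza1 gave 5.03 and 5.92 with the Hdac6 vector, against 5.90 and 5.53 with the empty vector (log2 fold change -0.24), and Capza2 had 0.02. Capg, a gelsolin relative that caps without cutting, gave 6.68 and 7.17 with the Hdac6 vector, against 7.22 and 6.98 with the empty vector (log2 fold change -0.17). The others were Gsn (gelsolin, 0.17), Tmod3 (tropomodulin 3, a cap of the slow-growing end, 0.07) and Eps8 (-0.13).

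Non-muscle myosin II pulls filaments past each other. Its heavy chain Myh9 gave 7.27 and 7.19 with the Hdac6 vector, against 7.58 and 7.39 with the empty vector. It did not overlap (log2 fold change -0.26, interval -0.82 to 0.31). Other Myh9 probes gave 0.18, -0.29 and 0.47, the first wholly above the empty vector arrays and the others overlapping. The other heavy chain, Myh10, gave 5.03 and 5.50 with the Hdac6 vector, against 5.58 and 5.09 with the empty vector (log2 fold change -0.08). The light chain Myl9 gave -2.74 and -2.60 with the Hdac6 vector, against -2.93 and -2.73 with the empty vector (log2 fold change 0.16). Both overlapped. Of 10 other light chain and regulator genes, all were tested, 0 changed and 4 were higher by mean, with a median log2 fold change of -0.02. Those with the smallest unadjusted p were Anln (anillin, log2 fold change -0.40), the third non-muscle heavy chain Myh14 (-0.22) and Mylk (myosin light chain kinase, 0.17).

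**Figure D3:**
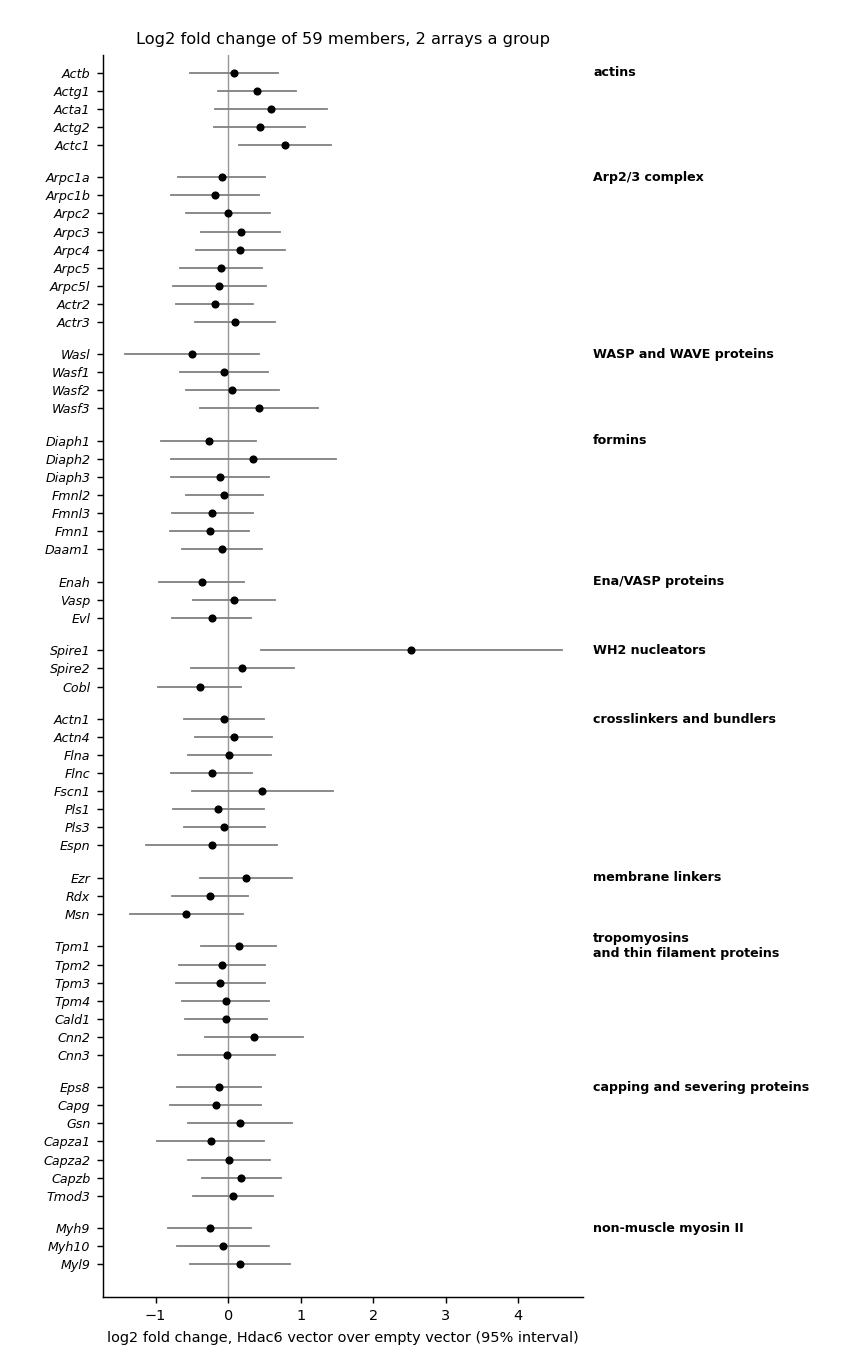
Log2 fold change of the 59 members, Hdac6 vector over empty vector (x axis), with the 95% interval of the limma fit as a line, by role. The intervals of 57 members include 0; those of Actc1 and Spire1 lie above it, and no adjusted p was under 0.05.

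Actin genes are classic targets of serum response factor (SRF) and its actin-sensing partners Mrtfa and Mrtfb, which bind a sequence called the CArG box. Of 14 genes for these factors and known targets, 13 were tested, Myocd not being well above background, 0 changed and 4 were higher by mean (median log2 fold change -0.03). Srf gave 2.43 and 2.85 with the Hdac6 vector, against 1.99 and 2.59 with the empty vector (log2 fold change 0.35). Fhl2, a target, had a log2 fold change of 0.39, while the targets Ccn2, Tagln and Vcl had -0.27, -0.07 and -0.03. Beyond Acta2, none of the listed targets lay wholly above the empty vector arrays. Mrtfa (-0.22) and Ccn2 lay wholly below them, and Mrtfb (-0.14) overlapped.

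The CArG box was looked for, by its name's usual letters and on both strands, in the RefSeq promoter windows (GRCm38.p6, 250 bases before to 50 after a gene's start). The table held a window for 52 of the 59 members. A box was found in 6 of their 66 windows (9.09%), against 1.63% of all 32851 windows. The 6 members are shown with the box in capitals and 10 bases on either side, 5′ to 3′ on the gene's strand, because all 6 were higher by mean with the Hdac6 vector.
Acta1: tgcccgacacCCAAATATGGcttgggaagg
Actc1: gctaaggcgaCCAAATAAGGcaaggtggca
Actg1: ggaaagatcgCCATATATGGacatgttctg
Arpc4: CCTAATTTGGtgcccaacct
Cnn2: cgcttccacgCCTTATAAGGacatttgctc
Myl9: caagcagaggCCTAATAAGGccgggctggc
The stretches shown lie at chr8:123894829-123894858, chr2:114052903-114052932 and chr11:120348566-120348595 (minus strand) for Acta1, Actc1 and Actg1. They lie at chr6:113377863-113377882, chr10:79988534-79988563 and chr2:156775293-156775322 (plus strand) for Arpc4, Cnn2 and Myl9. The Arpc4 box begins at the edge of the table's window, so nothing is shown before it. A match is a description of these letters and does not show that SRF binds there.

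The median log2 fold change of the 6 was 0.38, and 3 of them (the 3 actins) lay wholly above the empty vector arrays. Of the 46 members whose windows held no box, 15 were higher by mean and 2 lay wholly above, with a median of -0.07. The 7 members without a window, Spire1 among them, are in neither set. The grouping was made after values were seen and has no test. Without empty vector 1, 4 of the 6 were higher and their median was 0.21. Over all 221 tested genes with a box, 113 were higher by mean, 38 lay wholly above and the median was 0.00. Of the 13216 tested genes whose windows held no box, 1349 lay wholly above. Base composition moved with the grouping: the probes of the 6 had a median of 54.2% G and C, against 42.5% for the 46. Over all genes tested, the log2 fold change went with the G and C share of the probe (Spearman's correlation 0.26, n = 23469; 0.32 over the 59 members), as a description across probes of the same 4 arrays. The median log2 fold change was -0.10 for probes of up to 35% and 0.16 for probes above 55% (all genes). No member's brightest tested probe was above 55%. The 13 members whose brightest probe was above 45% and up to 55% had a median of 0.08, beside 0.09 for all genes in that range. The part of base composition in the values of the 6 was not tested.

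**Figure D4:**
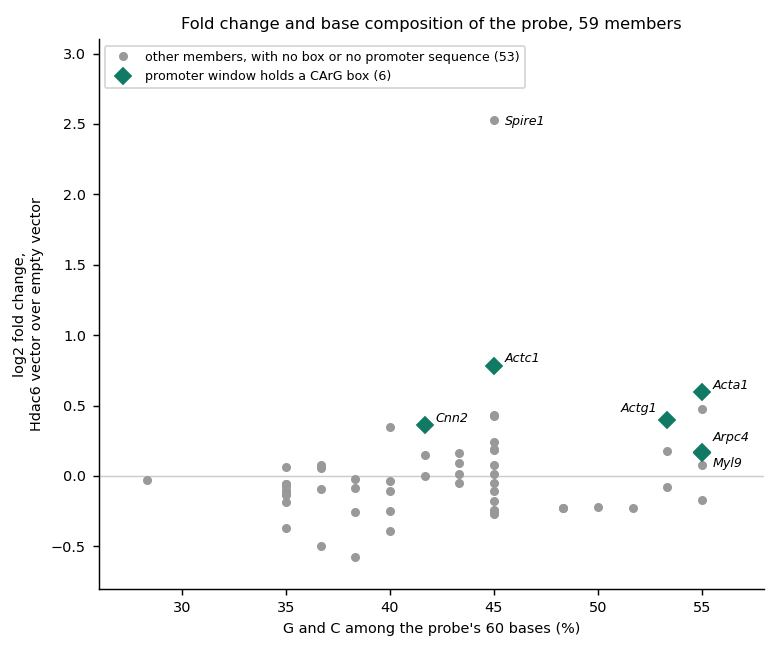
Log2 fold change of the 59 members, Hdac6 vector over empty vector (y axis), against the G and C share of the probe (x axis, percent). Diamonds are the 6 members whose promoter window holds a CArG box, all above 0; 5 of the 6 probes have 45% G and C or more.

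Agreement between probes of a gene was checked in the 41 members with 2 or more tested probes. The 95% intervals of the log2 fold change overlapped in all 41, and in 19 all probes had the same sign. The median range between probes of a gene was 0.26, and the widest 0.94. Larger than these were differences between replicate arrays at some probes. On 7 of the 129 member probes (5.43%, against 1.38% of all probes), Hdac6 vector 1 was at least 2-fold above Hdac6 vector 2 and empty vector 2 at least 2-fold above empty vector 1. On 0 of 129 were both differences that large the other way (0.168% of all probes). These probes were singled out after their values were seen.

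The 7 belonged to 6 members: Cald1, Diaph2 (2 probes), Fmn1, Msn, Myh9 and Wasf2. The Msn probe at chrX:93347069-93347128 (mm9) gave -2.13 and -4.03 with the Hdac6 vector, against -4.78 and -2.12 with the empty vector. The brightest Msn probe, 16763 bases further towards the 3′ end, had its arrays in the other order, as given above. The Cald1 probe at chr6:34703475-34703534 gave 1.98 and 0.30 with the Hdac6 vector, against -0.20 and 1.73 with the empty vector, while the brightest Cald1 probe lay between 6.34 and 6.65 on all 4 arrays. Without empty vector 2 this Cald1 probe passed the test (log2 fold change 1.34, limma adjusted p = 0.0203). The Myh9 probe at chr15:77606293-77606352 gave -0.53 and -2.02 with the Hdac6 vector, against -2.65 and -0.84 with the empty vector.

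None of the 7 was its gene's most 3′ tested probe, from which they lay 4535 to 180204 bases on the chromosome. Over 40 members with 2 or more tested probes on 1 strand, the difference Hdac6 vector 1 minus 2 had an SD of 0.43 at the most 3′ probes and of 0.72 at the other 69. The difference empty vector 2 minus 1 had an SD of 0.30 and 0.75. Signal level was not held equal between these sets. The Msn, Cald1 and Myh9 probes above were each dimmer than their gene's most 3′ probe, so position and signal level cannot be told apart here. Over the 129 member probes the 2 replicate differences had a Spearman's correlation of 0.48, and of 0.30 over all tested probes, as a description. RNA quality values were not analysed here, and the source of this pattern was not tested.

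**Figure D5:**
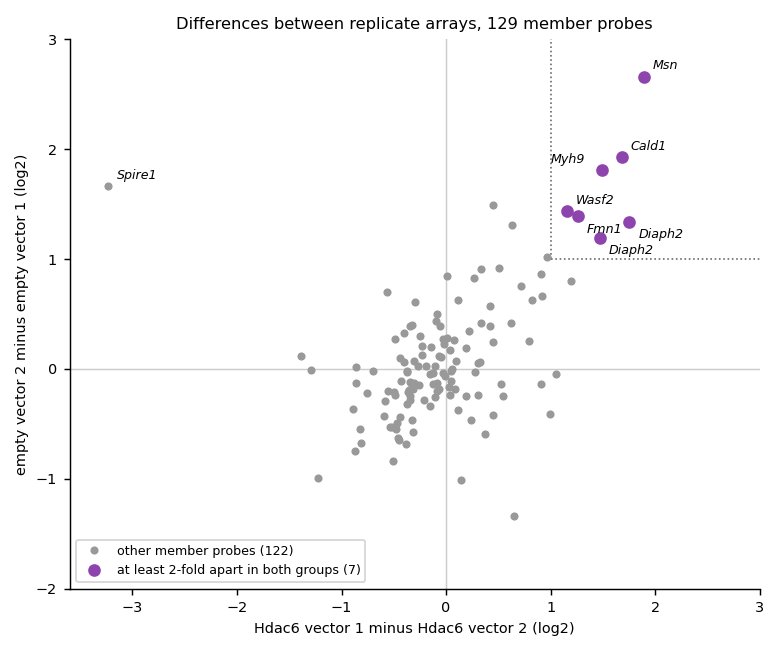
Difference between replicate arrays for the 129 tested member probes: Hdac6 vector 1 minus 2 (x axis) against empty vector 2 minus 1 (y axis), both log2. The 7 labelled purple probes lie at least 2-fold apart in both groups (dotted lines), and no probe lies in the opposite corner; Spire1 is apart at the left.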

How the data were processed

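GC-1 RNA was measured on 4 arrays of 1 slide, 2 a group, 48 h after transfection. Per the file headers, the deposited scanner files hold spot intensity values from Feature Extraction 11.5.1.1 (the tool also in the submitters' processing notes), background-subtracted and not yet scaled across arrays. The authors also deposited log2 values, 1 row per gene name, by steps that neither labels nor headers state. They served as an alternative. For 25183 single-probe genes they differ from the scanner levels by 1 constant per array in 99.8% of rows or more (tolerance 0.01), which fixes scale and direction there.

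Here spots of 1 probe were averaged without outlier flags, and each array's 75th percentile over 56605 gene probes was subtracted. The 35206 probes well above background on both arrays of a group were tested with limma 3.58.1 in R 4.3.3 (lmFit, eBayes with trend, two-sided, Benjamini-Hochberg), a fit also tested on simulated data. It had 2 residual degrees of freedom, so the number of arrays limits precision. P-values reflect the spread among these 4 samples alone, part of which may be technical. The GRCm38.p6 RefSeq table named 43736 probes. Alternatives were normexp background correction, quantile and median scaling, other filters on dim probes, no trend, blocks by replicate, the authors' table, the mean of a gene's probes and leaving out each array.

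Members, lists and alternatives were chosen with earlier results of these data known. Values on every array are given for the 5 actins and, in other roles, the 3 members with the smallest unadjusted p. Other genes and probes given on every array, and the groupings by CArG box, base composition and replicate difference, were chosen after values were seen. The probe sequence of 1 actin and 1 of the gene lists are not reported here.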

Additional observations from a re-analysis of the deposited data

How the results depend on the processing

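Of the 35 members given on every array, 17 kept their sign and their side of the threshold under every alternative run (13, or 12 for Spire1, whose probe is dim on 1 array), and 17 turned sign at least once. The count of all changed probes was 4. It was 0 with median scaling (727 probes at an unadjusted p under 0.05), 2 with no trend in the spread, 2 with quantile normalization, 29 with normexp background (18 higher, 11 lower), 19 with the authors' value table and 0 to 302 when 1 array was left out (302 without empty vector 2; 0 without Hdac6 vector 1, where 1420 had an unadjusted p under 0.05, or without Hdac6 vector 2, where 654 had). The count of changed member probes was 0 under the other alternatives, 0 to 3 with 1 array left out and 1 with the replicate block. Same-numbered arrays deviated in opposite directions (correlation -0.36), so the numbers do not pair the arrays; the replicate block gave 22 calls over all probes, Spire1 among them (log2 fold change 2.53, limma adjusted p = 0.00177). A crossed block, pairing Hdac6 vector 1 with empty vector 2, was added after seeing the data and gave 15 calls, 0 among members. Medians that moved were those of Ena/VASP proteins (0.038 with the mean of tested probes, -0.044 with the value table), WH2 nucleators (-0.10 over probes above background on all arrays, 1.03 with the value table) and crosslinkers (0.093 with the mean of tested probes, -0.14 with median scaling). With 1 array left out, medians ranged from -0.14 to 0.12 for all members, 0.35 to 0.63 for actins, -0.24 to 0.077 for Arp2/3, -0.025 to 0.13 for WASP and WAVE, -0.40 to -0.057 for Ena/VASP, -0.031 to 0.42 for WH2 nucleators, -0.098 to 0.036 for crosslinkers, -0.32 to 0.16 for myosin II and 0.21 to 0.61 for members with a CArG box. Signs turned for Actb with median scaling (-0.011) and normexp (-0.012), Vasp with median scaling (-0.013), Espn (0.046) and Myh10 (0.026) with normexp, Diaph1 (0.085), Evl (0.038), Espn (0.096) and Myh9 (0.026) with the mean of tested probes, and Diaph1 (0.0031), Espn (0.015) and Cobl (1.03) with the value table. With 1 array left out, log2 fold changes ranged from -0.10 to 0.27 for Actb, -0.40 to 0.036 for Arpc1b, -1.09 to 0.099 for Wasl, -0.29 to 0.17 for Wasf1, -0.091 to 0.25 for Vasp, -0.031 to 0.42 for Spire2, -0.27 to 1.22 for Fscn1, -0.75 to 0.30 for Espn, -0.065 to 0.79 for Cnn2, -0.36 to 0.14 for Tpm3, -0.69 to 0.20 for Capza1, -0.42 to 0.072 for Capg and -0.32 to 0.17 for Myh10. A lone array of a group is assumed there to vary like the others. Median scaling moved the median of all tested probes to -0.07, from 0.02 with the 75th percentile. The causes were not tested. With 2 arrays a group the median half-width of a member's 95% interval, not adjusted for the number of probes, was 0.60 log2 units. Changes below about that size could not be told from the spread between arrays. Larger ones could still miss the adjusted threshold, as Actc1 (log2 fold change 0.78) and Spire1 (2.53) did in the main fit.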

Other observations

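Markers of other testis and blood cells were read on the same arrays, as a check on what the culture holds, and 0 changed in any list. Of 7 Sertoli cell markers 6 were tested, Amh not being well above background, and none of the 6 was higher by mean with the Hdac6 vector (median log2 fold change -0.37). Wt1, a transcription factor of Sertoli cells and of the gonad's lining, was bright on all arrays, at 6.58 and 7.02 with the Hdac6 vector, against 7.09 and 6.75 with the empty vector. Dhh also lay above the 75th percentile on every array, while Sox9, Gata4, Fshr and Rhox5 lay below it on every array. The summed Sertoli signal, in units of the array's 75th percentile, was 98.9 and 135 with the Hdac6 vector, against 143 and 111 with the empty vector, and overlapped. Of 5 Leydig cell markers 3 were tested, with summed signals of 0.241 and 0.294 with the Hdac6 vector, against 0.229 and 0.254 with the empty vector. Of 3 endothelial markers 2 were tested, with 0.289 and 0.224 with the Hdac6 vector, against 0.312 and 0.298 with the empty vector. Of 6 fibroblast markers 5 were tested, with 317 and 343 with the Hdac6 vector, against 279 and 350 with the empty vector.

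Of 6 leukocyte markers 5 were tested, and their summed signal was 16.0 and 13.1 with the Hdac6 vector, against 28.4 and 17.8 with the empty vector. Without Cd68 it was 6.02 and 5.68 with the Hdac6 vector, against 5.54 and 6.31 with the empty vector, and overlapped. By mean 2 of the 5 were higher and 3 lower (median log2 fold change -0.06). Cd68, a lysosomal protein of macrophages, gave 3.32 and 2.89 with the Hdac6 vector, against 4.51 and 3.53 with the empty vector (log2 fold change -0.92, limma unadjusted p = 0.0237, adjusted p = 1.00), and was picked out after its values were seen. Ptprc gave 1.85 and 1.95 with the Hdac6 vector, against 1.82 and 2.11 with the empty vector. Itgam gave 1.03 and 0.40 with the Hdac6 vector, against 0.51 and 0.66 with the empty vector. Lyz2 and Cd3e were dimmer, at -3.25 to -1.17 over all arrays. The groups overlapped for Ptprc, Itgam, Lyz2 and Cd3e. Adgre1, a defining macrophage marker, was not well above background. The part of such cells in the actin values was not tested.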
